A study of Ovis aries with 16 samples.

Results

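GRIN1, GRIA1 and GRIA4, subunits of the glutamate receptors that carry fast excitatory transmission, were measured in the hippocampus of fetal sheep. The tissue was taken 24 h after maternal ventilatory hypoxia or normoxia of 30 min began, with or without ketamine beforehand. They are 3 of the 1018 genes named on the ovine array and were read by every probe whose gene name or description names one of them: 3 probes for GRIN1, 2 for GRIA1 and 2 for GRIA4, or 7 of the 15008 probes that are not controls. One GRIN1 probe is listed under the older receptor name NR1. Each of the 16 arrays held total RNA from the hippocampus of 1 fetus. NC was normoxia without ketamine (3 fetuses), NK was normoxia after 3 mg/kg of intravenous ketamine (4 fetuses), HC was hypoxia without ketamine (5 fetuses) and HK was hypoxia after the same dose (4 fetuses). All were late-gestation fetuses that carried chronic catheters, the NC group included, and all then had 23.5 h of normoxia before the tissue was taken. Whole pregnancies were assigned to normoxia or hypoxia and nearly all fetuses were twins, but the labels do not tie fetuses to ewes, so fetuses of a group may share a mother and the tests treat them as independent.

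AMPA receptors are tetramers of the subunits encoded by GRIA1 to GRIA4, and they pass most of the fast current at excitatory synapses. NMDA receptors open only when glutamate and a co-agonist are bound and the membrane is already depolarized, they admit calcium, and every one of them needs the GRIN1 subunit. Ketamine enters and blocks the open NMDA channel. In the hippocampus NMDA receptors start long-term potentiation and AMPA receptors with GRIA1 are added to the synapse to express it, while excess calcium entry through glutamate receptors is a classical route of neuronal injury after oxygen lack.

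The probe sequences are shown because they decide how many separate measurements stand behind each gene. Each is 60 bases long, written 5′ to 3′ as the scanner files give it. Capitals mark the bases that a probe shares as 1 unbroken run with another probe of its gene.
GRIN1 probe 1 (A_70_P002761): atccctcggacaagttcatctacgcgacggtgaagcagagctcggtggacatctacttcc
GRIN1 probe 2 (A_70_P002821): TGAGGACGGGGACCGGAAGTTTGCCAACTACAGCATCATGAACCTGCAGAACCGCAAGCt
GRIN1 probe 3 (A_70_P002822): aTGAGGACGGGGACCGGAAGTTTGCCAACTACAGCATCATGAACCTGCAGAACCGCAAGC
GRIA1 probe 1 (A_70_P002742): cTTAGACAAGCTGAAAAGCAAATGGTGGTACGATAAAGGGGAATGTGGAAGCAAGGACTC
GRIA1 probe 2 (A_70_P002741): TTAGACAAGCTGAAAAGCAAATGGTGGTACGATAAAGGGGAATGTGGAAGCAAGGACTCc
GRIA4 probe 1 (A_70_P002757): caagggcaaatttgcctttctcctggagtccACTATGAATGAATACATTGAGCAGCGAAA
GRIA4 probe 2 (A_70_P002756): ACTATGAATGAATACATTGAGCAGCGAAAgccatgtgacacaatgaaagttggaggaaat

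GRIN1 probes 2 and 3 share 59 of their 60 bases, as do both GRIA1 probes, so each of these pairs is one target read on separate spots. The GRIA4 probes overlap over 29 bases. GRIN1 probe 1 shares no such run with probes 2 and 3. Probes of different receptor genes share no run longer than 7 bases. GC content was 55.0% for GRIN1 probes 1 and 2, 45.0% for GRIA1 probe 1, and 43.3% and 38.3% for GRIA4 probes 1 and 2, against a median of 43.3% over the probes tested. Probe 1 of each gene, the brightest on average, stands for the gene below, and the others are given beside it.

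Levels are log2 intensities relative to the 75th percentile of their own array, so a level of 0 is an intensity equal to that percentile, which lay between 882 and 1199. All 7 probes were well above background on 16 of 16 arrays and none was saturated. A difference is said to have passed where limma's moderated test gave an unadjusted p under 0.05, the criterion of the study, and the p adjusted over all 12543 probes tested is given beside it. None of the 42 comparisons of a member probe had an adjusted p under 0.05, and the lowest was 0.272. Over all probes tested 0.0159% had one in HC against NC, 0.104% in hypoxia against normoxia pooled over treatments, and 0 in the other 4 comparisons. Each p between groups is two-sided, and exact permutation p-values over the arrays are given beside limma's. The arrays lay on 2 slides of 8, with all 4 groups on both slides and, over the slides together, in both array rows. Row 2 of slide 2, where HC replicate 5 lay, held no NC array. HC replicate 5 stood apart in NEUROD1 and NRGN, and in other genes too. Its level of NEUROD1, a transcription factor of dentate granule neurons, was -5.91 against -1.31 to 2.03 on the other arrays, and its level of the neuronal calmodulin-binding protein NRGN was -3.12 against -1.04 to 0.17. Its level of the neurofilament gene NEFH, -4.95, was within the range of the other arrays, -5.74 to -3.87. Of the gene lists described below, its mean level was the lowest of all arrays for inhibitory (1.71), activity-regulated (-0.53) and AMPA receptor genes (-0.65). Its level of the red blood cell gene HBB, 5.10, was the highest. For the microglia, astrocyte, endothelial and choroid plexus lists it lay within the range of the other arrays. NEUROD1, listed for hippocampal excitatory neurons, and NRGN, listed for neurons in general, were flagged well above background on all arrays. On HC replicate 5 the NEUROD1 flag was set at a level of -5.91, so it does not show that this array held the same tissue. The choroid plexus gene TTR ranged from -1.43 to 6.41. Results of GRIN1, GRIA1 and GRIA4 that rest on HC replicate 5 are given with and without it. The HC minus NC differences of other genes include it.

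GRIN1 was lower in hypoxic than in normoxic fetuses over both treatments pooled, by 1.63-fold, and its 3 lowest levels were those of hypoxic fetuses whose arrays lay in row 2 of a slide. In NC the levels of probe 1 were -0.72, -0.87 and -0.75 (mean -0.78 ± 0.081 SD, n = 3). In NK they were -0.94, -1.78, -0.68 and -1.45 (mean -1.21 ± 0.50 SD, n = 4). The NC arrays lay close together, whereas the NK arrays ran from above the NC range to far below it. In HC the levels were -1.06, -1.77, -1.14, -1.55 and -3.23 (mean -1.75 ± 0.88 SD, n = 5), and in HK they were -0.99, -2.54, -1.10 and -1.97 (mean -1.65 ± 0.74 SD, n = 4). All 5 HC arrays were below all 3 NC arrays, and the HK arrays overlapped those of NK and HC.

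**Figure D1:**
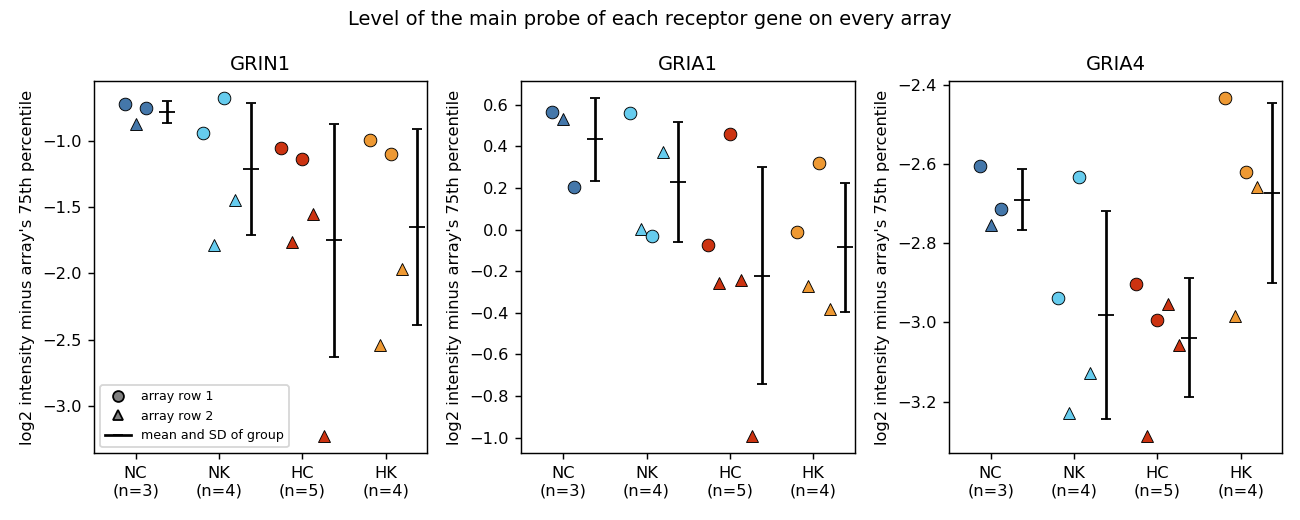
Level of probe 1 of GRIN1, GRIA1 and GRIA4 on each array (log2 intensity minus the 75th percentile of the array) in the 4 groups. Circles are arrays of row 1 and triangles arrays of row 2 of a slide, and the bar beside each group is its mean and SD. The lowest GRIN1 value, -3.23, and the lowest GRIA1 value, -0.99, are from HC replicate 5, whereas the lowest GRIA4 values, -3.29 and -3.23, are from HC replicate 2 and NK replicate 2.

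For probe 1 HC was lower than NC by 0.97 on the log2 scale (log2 difference -0.97, SE 0.458, 95% confidence interval -1.95 to 0.01). It missed the criterion (limma p = 0.0529, adjusted p = 0.476, exact permutation p = 0.0714, where 3 against 5 arrays allow no p under 0.0179). Probe 2 passed at -1.02 (SE 0.40, limma p = 0.0230, adjusted p = 0.373, exact permutation p = 0.0536), and so did probe 3 at -1.0 (SE 0.425, limma p = 0.0341, adjusted p = 0.416, exact permutation p = 0.0536). On both, the groups did not overlap. In all, 5 of the 7 member probes fell in HC against NC, and on 4 of the 7 the HC arrays all lay below the NC arrays. The 5 were GRIN1 probes 2 and 3 and both GRIA1 probes, each pair 1 target, and GRIA4 probe 1. As probes of a gene were read in the same fetuses, these are not counts of separate measurements. Over all probes tested 6.27% fell in this comparison and 4.92% had every HC array below every NC array. In bulk tissue a lower level can mean fewer cells that express the gene or less RNA in each, and these cannot be told apart.

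The size of the GRIN1 difference rested on HC replicate 5. Without it, HC minus NC was -0.60 for probe 1, -0.74 for probe 2 and -0.67 for probe 3, and all 3 missed the criterion. As all 5 HC arrays lay below the NC arrays on each probe, the remaining 4 did so by necessity. Probe 1 passed when HC replicate 1, HC replicate 3 or HK replicate 2 was left out, at -1.14, -1.12 and -0.97. Probe 2 also missed the criterion without NC replicate 1 (-0.98), and probe 3 without any one of the 3 NC arrays. Under a background correction by normexp, which moved the median of all probes to 0.34, the 3 probes were -0.25, -0.32 and -0.33 and missed the criterion. Probe 3 also missed it with slide and row in the model (-0.77), and probe 1 passed with the replicate number as a block (-0.52). That block gives HC replicate 5 no weight, as no other array has its number.

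In the fetuses given ketamine, HK minus NK was -0.44 for GRIN1 probe 1 (SE 0.443, 95% confidence interval -1.39 to 0.51, limma p = 0.340, exact permutation p = 0.371). It was -0.28 for probe 2 and -0.36 for probe 3, which missed the criterion as well. With the replicate number as a block probe 1 passed here too (-0.44, SE 0.196). In this comparison 0 of the 7 member probes were lower and 2, the overlapping probes of GRIA4, were higher, against 2.46% and 2.81% of all probes tested. Pooled over treatments, hypoxia minus normoxia was -0.70 for probe 1 (SE 0.319, 95% confidence interval -1.38 to -0.02, limma p = 0.0445, adjusted p = 0.382, exact permutation p = 0.0526). These permutations shuffled the oxygen labels within each treatment. Probes 2 and 3 passed at -0.65 and -0.68 (exact permutation p = 0.050 and p = 0.0472). In this pooled comparison the 3 GRIN1 and both GRIA1 probes fell, 5 of 7, against 6.75% of all probes tested. These probes again include 2 pairs that each read 1 target, so the count is not one of separate measurements. The pooled call for probe 1 was lost when any one of 9 of the 16 arrays was left out. The lowest remaining sizes were -0.52 without HC replicate 5 and -0.55 without HK replicate 2.

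Ketamine gave no GRIN1 difference past the criterion. NK minus NC was -0.43 on probe 1 (SE 0.479, limma p = 0.383, exact permutation p = 0.286). Of all probes 1.78% passed in that comparison, and 0 of the 7 member probes did. On GRIN1 probe 2 every NK array lay below every NC array, as held for 2.17% of all probes, although NK replicate 1 and NC replicate 2 were both at -1.05 after rounding. HK minus HC was 0.10 for probe 1 (SE 0.42, 95% confidence interval -0.80 to 1.00, limma p = 0.818, exact permutation p = 0.889), and it was -0.27 without HC replicate 5. The interaction, the ketamine difference in hypoxia minus that in normoxia, was 0.53 (SE 0.637, 95% confidence interval -0.84 to 1.89). Shuffling the ketamine labels within each oxygen group gave an exact permutation p = 0.407. Mean levels ran in the order NC, NK, HK, HC, and no neighbours compared in a test differed beyond their spread.

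GRIN1 levels also followed the position of the array on its slide. Within each of the 4 groups, every row 2 array was below every row 1 array on all 3 GRIN1 probes, a pattern shared by 79 of the 12543 probes tested (0.63%). In a fit with the groups and the row, row 2 minus row 1 was -0.88 for probe 1 (SE 0.224, limma adjusted p = 0.148), ranked 141 of 12543 by p, and 7.87% of all probes tested were lower in row 2 at the criterion. Row 2 held 3 of the 5 HC arrays and 1 of the 3 NC arrays, and 2 of 4 in NK and in HK. With the row in the model, GRIN1 HC minus NC was smaller and passed (-0.73). Within row 1 it was -0.36 (2 arrays against 2) and within row 2 it was -1.31 (3 against 1), and HK minus NK was -0.24 and -0.64. By slide, HC minus NC was -0.61 (2 against 2) and -1.22 (3 against 1).

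The choroid plexus gene TTR, which encodes the thyroid hormone carrier transthyretin, moved with the rows as well, with a median of 0.17 in row 1 and 5.51 in row 2 (row 2 minus row 1 4.21, SE 0.838, limma adjusted p = 0.105). The 4 choroid plexus genes tested of 9 listed had a mean level of -3.68 to -2.53 in row 1 and of -3.11 to 0.17 in row 2, and 1 of them passed for the row, as did 15.2% of all probes tested in either direction. Their part in the GRIN1 levels was not tested. The rows are positions read from the file headers, and the sources used here do not say what else differed between them.

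**Figure D2:**
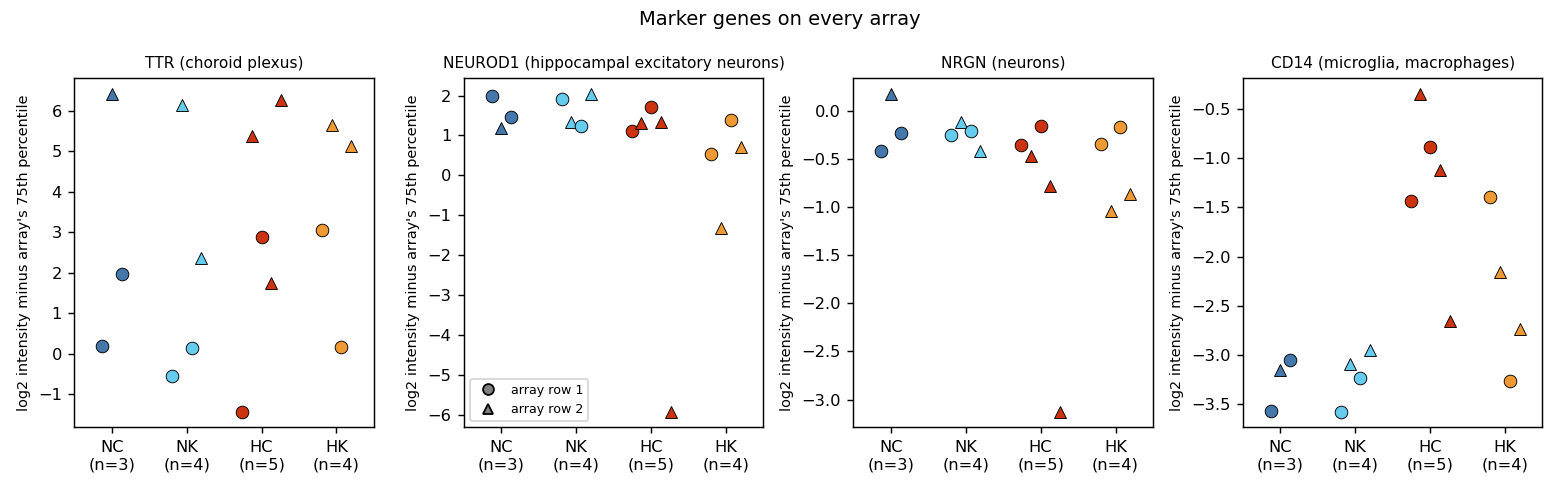
Levels of marker genes on each array (log2 intensity minus the 75th percentile of the array) by group, with circles for row 1 and triangles for row 2 arrays. TTR lies between 1.74 and 6.41 on row 2 arrays and between -1.43 and 3.07 on row 1 arrays, NEUROD1 and NRGN are lowest on HC replicate 5 at -5.91 and -3.12, and the highest CD14 level, -0.35, is on an HC array.

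GRIA1, a major AMPA subunit of hippocampal pyramidal cells, fell 1.57-fold in HC against NC. In NC the levels of probe 1 were 0.57, 0.53 and 0.20 (mean 0.43 ± 0.20 SD, n = 3), and in NK they were 0.56, 0.00, -0.03 and 0.37 (mean 0.23 ± 0.29 SD, n = 4). In HC they were -0.07, -0.26, 0.46, -0.24 and -0.99 (mean -0.22 ± 0.52 SD, n = 5), and in HK they were -0.01, -0.27, 0.32 and -0.38 (mean -0.09 ± 0.31 SD, n = 4). 4 of the 5 HC arrays were below all NC arrays, and HC replicate 3 lay inside the NC range.

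HC minus NC was -0.65 for GRIA1 probe 1 (SE 0.261, 95% confidence interval -1.21 to -0.10, limma p = 0.0248, adjusted p = 0.378, exact permutation p = 0.0893). For probe 2 it was -0.66 (SE 0.284, limma p = 0.0353, adjusted p = 0.418, exact permutation p = 0.107). With only the NC and HC arrays in the limma fit, probe 1 missed the criterion, and with the replicate number as a block both probes did (-0.42 and -0.41). Leaving out HC replicate 5, NC replicate 1 or NC replicate 2 ended the call, at -0.46, -0.59 and -0.61. Probe 2 lost its call without these arrays and without HC replicate 2 or HC replicate 4, and was -0.45 without HC replicate 5. HK minus NK was -0.31 (SE 0.253, 95% confidence interval -0.85 to 0.23, limma p = 0.236, exact permutation p = 0.171). The pooled difference, -0.48 (SE 0.182, limma p = 0.0183, adjusted p = 0.295, exact permutation p = 0.0217), kept its call when each of the 16 arrays was left out in turn, with values from -0.57 to -0.39, the smallest without HC replicate 5. The corresponding pooled value on probe 2 was -0.55 (limma p = 0.0145, exact permutation p = 0.0179).

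Ketamine comparisons of GRIA1 missed the criterion in this fit. NK minus NC was -0.21 (limma p = 0.461, exact permutation p = 0.371) and HK minus HC was 0.14 (SE 0.24, 95% confidence interval -0.38 to 0.65, limma p = 0.581, exact permutation p = 0.722). Without HC replicate 5 the latter was -0.058. On probe 2 NK minus NC passed (-0.27, SE 0.102) where replicate numbers were blocked separately in hypoxic and normoxic fetuses. The interaction was 0.34 (SE 0.363, exact permutation p = 0.342). Group means ran in the same order as for GRIN1, NC, NK, HK, HC, with no neighbours apart beyond their spread. The row term was smaller than for GRIN1 and missed the criterion on probe 1 (-0.33, SE 0.164, limma adjusted p = 0.354), and with it in the model HC minus NC was -0.57 and passed. Within row 1 HC minus NC was -0.19 (2 arrays against 2) and within row 2 it was -1.03 (3 against 1, with HC replicate 5 among the 3). By slide it was -0.71 (2 against 2) and -0.46 (3 against 1, with HC replicate 5 again).

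GRIA4, an AMPA subunit expressed early in hippocampal development and later chiefly in interneurons, fell in HC against NC, rose in HK against NK and rose in HK against HC. On probe 1 the NC levels were -2.60, -2.75 and -2.71 (mean -2.69 ± 0.077 SD, n = 3) and the HC levels were -2.90, -3.29, -2.99, -2.95 and -3.06 (mean -3.04 ± 0.15 SD, n = 5). All HC arrays lay below all NC arrays. In NK the levels were -2.94, -3.23, -2.63 and -3.13 (mean -2.98 ± 0.26 SD, n = 4), and in HK they were -2.43, -2.98, -2.62 and -2.66 (mean -2.67 ± 0.23 SD, n = 4). 3 of the 4 HK arrays were above all HC arrays, and HK replicate 2 lay among them.

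For GRIA4 probe 1 HC minus NC was -0.35 (SE 0.147, 95% confidence interval -0.66 to -0.03, limma p = 0.0322, adjusted p = 0.410, exact permutation p = 0.0179), or 1.27-fold lower. That exact p is the smallest that 3 against 5 arrays allow. On probe 2, with NC levels of -2.85, -2.95 and -3.34 and HC levels of -3.15, -3.72, -3.26, -3.37 and -3.29, the groups overlapped and the difference was -0.31 (SE 0.181) and missed the criterion (limma p = 0.109, exact permutation p = 0.161). The call on probe 1 was lost without HC replicate 2 (-0.29), NC replicate 1 (-0.31) or NC replicate 3 (-0.36), and kept without HC replicate 5 (-0.34).

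HK minus NK was 0.31 for probe 1 (SE 0.142, 95% confidence interval 0.00 to 0.61, limma p = 0.0477, adjusted p = 0.945, exact permutation p = 0.171). For probe 2, with NK levels of -3.43, -3.53, -2.95 and -3.70 and HK levels of -2.74, -3.20, -2.92 and -3.16, it was 0.40 (SE 0.176, limma p = 0.0404, adjusted p = 0.938, exact permutation p = 0.0857). The call of probe 1 was lost on leaving out any one of 13 arrays, with values down to 0.23 without HK replicate 1 or NK replicate 2. HK minus HC was 0.37 (SE 0.135, 95% confidence interval 0.08 to 0.65, limma p = 0.0168, adjusted p = 0.969, exact permutation p = 0.0317), or 1.29-fold higher. On probe 2 it was 0.35 and missed the criterion (SE 0.167, limma p = 0.0534, exact permutation p = 0.0317), so 1 of 7 member probes rose in HK against HC, where 2.86% of all probes did. Without HK replicate 1 the value for probe 1 was 0.29 and missed the criterion. NK minus NC was -0.29 (SE 0.154, limma p = 0.0782, exact permutation p = 0.143). It passed with the replicate number as a block (-0.29) and not with a block within each oxygen group (-0.24), and it passed without NK replicate 3 (-0.41).

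The interaction for GRIA4 was 0.66 on probe 1 (SE 0.205, 95% confidence interval 0.22 to 1.1, limma p = 0.00616, adjusted p = 1.00, exact permutation p = 0.00635). On probe 2 it was 0.71 (SE 0.253, limma p = 0.0141, exact permutation p = 0.0195). The permutations shuffled the ketamine labels within each oxygen group, which tests for any ketamine difference in either group as well as for an interaction. The interaction is equally the hypoxia difference with ketamine minus that without. Of the 7 member probes 2 were positive here at the criterion, the overlapping probes of GRIA4, against 2.45% of all probes tested. Leaving out each of the 16 arrays in turn gave 0.58 to 0.77, all past the criterion. The pooled hypoxia difference was near 0 (-0.02, exact permutation p = 0.877). By mean level the groups stood HK, NC, NK, HC, and the outer pairs of neighbours, HK with NC and NK with HC, were not compared in a test.

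On GRIA4 probe 1 the differences kept their sign in both array rows and on both slides. HC minus NC was -0.29 in row 1 and -0.35 in row 2, and -0.42 on slide 1 and -0.29 on slide 2. Row 2 and slide 2 each set 3 HC arrays against 1 NC array. HK minus HC was 0.42 and 0.28 in the rows, and 0.39 and 0.36 on the slides. HK minus NK was 0.26 and 0.36 by row. On probe 2 HC minus NC was -0.11 in row 1 and -0.51 in row 2, and it was -0.53 on slide 1 and 0.03 on slide 2, so its sign was not kept on both slides. Row 2 arrays were lower on probe 1 by 0.24 (row 2 minus row 1 -0.24, SE 0.0817, limma adjusted p = 0.229), which passed, and with the row in the model the interaction was 0.59.

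**Figure D3:**
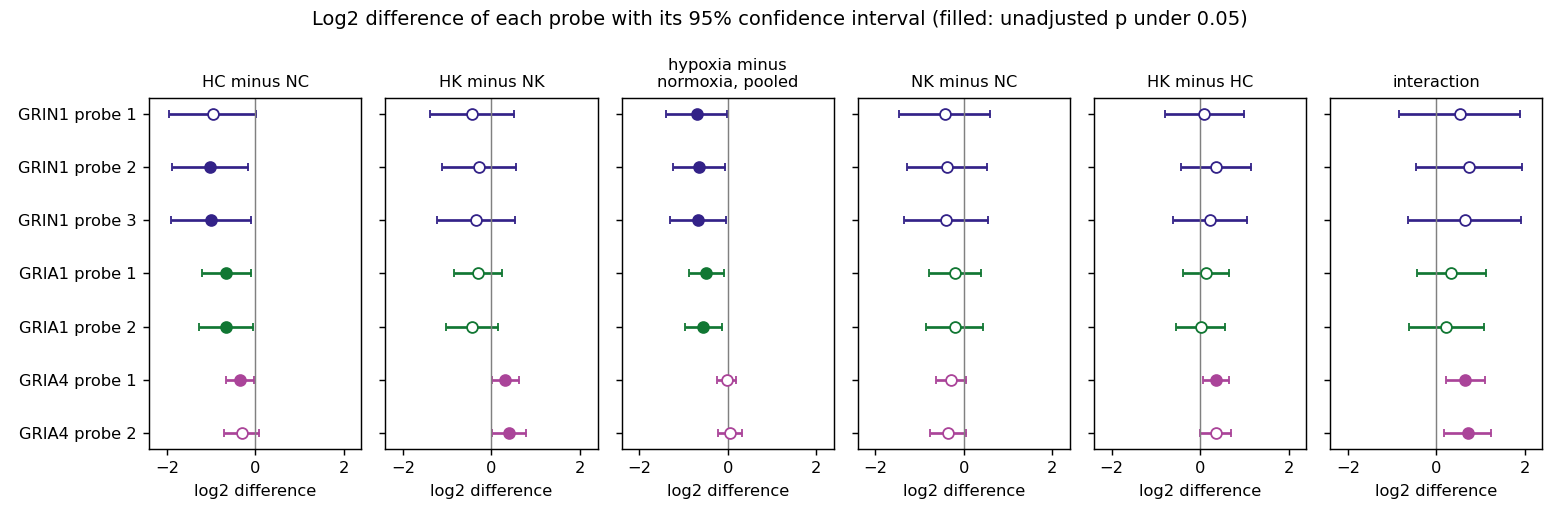
Log2 difference of each of the 7 probes in 6 comparisons, as a point with its 95% confidence interval from limma, and filled where the unadjusted p is under 0.05. GRIN1 and GRIA1 lie below 0 in the hypoxia comparisons, with GRIN1 probe 1 at -0.97 and its interval reaching 0.01, whereas GRIA4 probe 1 lies at -0.35 in HC minus NC, at 0.31 in HK minus NK and at 0.66 for the interaction.

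The deposited normalized values gave smaller differences than the scanner intensities. In them GRIA4 HC minus NC was -0.058 and missed the criterion, and the interaction was 0.14 and passed. GRIN1 HC minus NC was -0.42 there and passed. The cause was not tested. GRIA4 probe 1 had a mean intensity of 12.2% to 15.7% of the 75th percentile in the 4 groups. A background correction by normexp on the local backgrounds turned the sign of GRIA4 HC minus NC to 0.52 and of the interaction to -0.28. It also moved the median of all probes to 0.34 and to -0.31, which leaves 0.17 and 0.04 relative to that median. Some spots on 7 arrays had local backgrounds of 4301 to 65531, and with each array's local background limited to its 99th percentile the values were -0.21 and 0.40, both past the criterion.

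**Figure D4:**
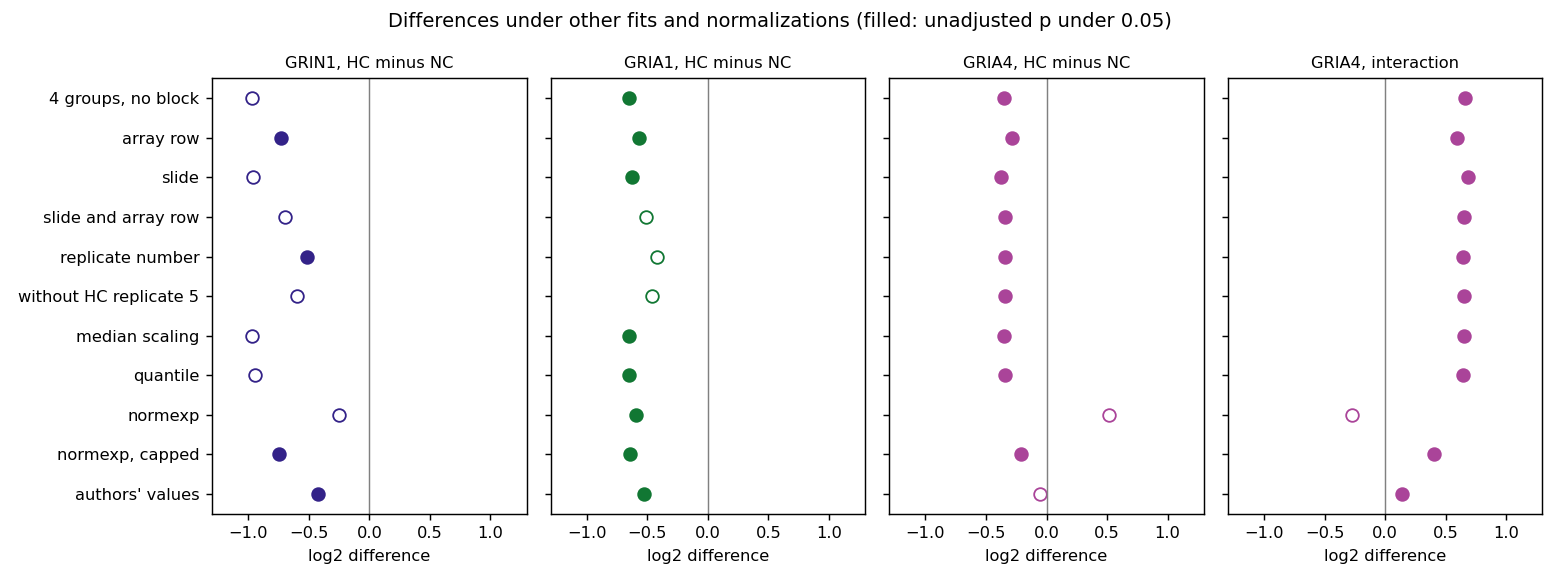
Log2 difference of probe 1 for GRIN1, GRIA1 and GRIA4 in HC minus NC and for the GRIA4 interaction under other fits, normalizations and background corrections, filled where the unadjusted p is under 0.05. GRIN1 ranges with the setting and is -0.60 without HC replicate 5, and the GRIA4 interaction is 0.59 or more with the row, slide or replicate in the model, 0.14 in the deposited values and -0.28 under the normexp correction.

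The remaining AMPA subunits, each read by 1 probe, also fell in HC against NC. GRIA2, the subunit whose edited form keeps AMPA receptors impermeable to calcium, was 2.45, 2.20 and 2.22 in NC and 2.06, 1.96, 2.04, 1.94 and 1.35 in HC. Its HC arrays all lay below the NC arrays (log2 difference -0.42, SE 0.169, limma p = 0.0256, adjusted p = 0.379, exact permutation p = 0.0357). GRIA3 was 0.97, 1.2 and 0.84 in NC and 0.84, 0.48, 0.99, 0.32 and 0.08 in HC, with overlap (-0.46, SE 0.211, limma p = 0.0459, adjusted p = 0.448, exact permutation p = 0.143). Both genes were lowest on HC replicate 5, and these differences include it. HK minus NK missed the criterion for GRIA2 (-0.15) and GRIA3 (-0.21), and so did their interactions, at 0.27 and 0.25. All 4 AMPA genes passed as lower in HC by their brightest probe, as 6.27% of all probes did, with a median of -0.44 against -0.03 over all probes tested. GRIA4 counts here through probe 1, while its probe 2 and the mean of its probes (-0.33) missed the criterion. In HK against NK 1 of the 4 passed as higher, as did 2.81% of all probes.

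Outside the 3 genes, 18 genes of 7 glutamate lists had a tested probe, of 79 listed. Of these 4 fell and 0 rose in HC against NC, where 6.27% of all probes fell and 4.54% rose: GRIA2, GRIA3, HOMER, a scaffold that ties metabotropic receptors to the postsynaptic density (-0.57, limma adjusted p = 0.416), and CAMK2, the calcium-dependent kinase that phosphorylates GRIA1 (-0.68, limma adjusted p = 0.457). The file names HOMER and CAMK2 without the number or letter of the family member. These bare names were added to the planned lists, which held only the numbered or lettered family members. The median of the 18 was -0.33 and 16 were below 0. That count of 4 was 1 without HC replicate 5, HC replicate 4 or NC replicate 2, 0 without NC replicate 1, and 2 without HC replicate 2, HK replicate 3 or NK replicate 1. With the row in the model it was 2, and 5 of the 18 passed for the row itself, as did 15.2% of all probes. In HK against NK 1 of the 18 fell, where 2.46% of all probes did: the neuronal glutamate transporter SLC1A1 (-0.54, limma adjusted p = 0.900). The median was -0.05. The metabotropic receptors had 0 of 7 genes past the criterion in HC against NC, with a median of -0.28. GRM8, a presynaptic receptor, was the 1 of these 7 that rose in HK against HC (0.85, limma adjusted p = 0.969), where 2.86% of all probes rose. The 4 transport and metabolism genes had 0 calls and a median of -0.33, and 3 kinases and effectors had 1 call, CAMK2, and a median of -0.44. The scaffold list had 2 genes tested of 26 and a median of -0.36. GRIN1 was the only NMDA receptor gene of 7 with a probe, and 0 of 7 kainate and delta receptor genes had one.

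**Figure D5:**
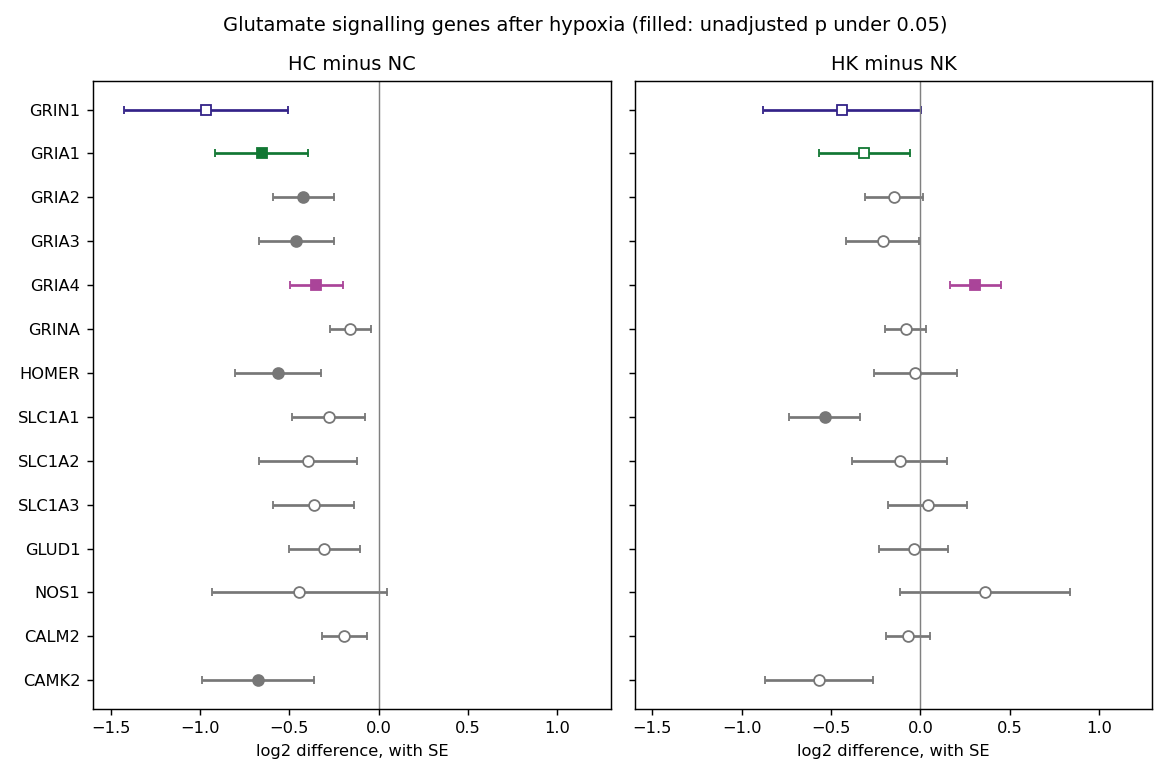
Log2 difference with its SE for the glutamate genes with a tested probe, metabotropic receptors left out, in HC minus NC and in HK minus NK, with squares for GRIN1, GRIA1 and GRIA4, circles for other genes and filled symbols for an unadjusted p under 0.05. In HC minus NC all filled symbols lie below 0, from -0.68 for CAMK2 to -0.35 for GRIA4, and in HK minus NK the filled ones are GRIA4 at 0.31 and SLC1A1 at -0.54.

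Markers of cell types were compared in the same fit, HC against NC. The microglia and macrophage list had 8 of 22 genes tested, of which 3 rose: the lipopolysaccharide co-receptor CD14 (1.97, limma adjusted p = 0.149), the Fc receptor chain FCER1G (0.72, adjusted p = 0.351) and the Fc receptor FCGR1A (1.13, adjusted p = 0.366), against 4.54% of all probes tested. CD14 was -3.57 to -3.05 in NC and -2.65 to -0.35 in HC. The mean level of the list was -3.79 to -3.24 in NC, -3.70 to -2.96 in NK, -3.00 to -1.35 in HC and -3.15 to -1.94 in HK, and its median difference was 0.92. The list levels in HC, where mean GRIN1 and GRIA1 levels were lower than in NC, were all above those in NC. In HK they overlapped those in NK, and 1 of the 8 genes rose against NK, where 2.81% of all probes did. GRIN1 and GRIA1 missed the criterion in HK against NK. The part of the list in the GRIN1 and GRIA1 differences was not tested. Among endothelial genes the leukocyte adhesion protein SELP (4.15, limma adjusted p = 0.168) and the glucose transporter SLC2A1 (0.50, adjusted p = 0.429) rose, 2 of 6 tested, with a median of 0.23, and among 6 astrocyte genes the gap junction protein GJA1 rose (0.74, adjusted p = 0.244), with a median of 0.12.

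The 2 general neuronal genes had a median of -0.81 and 0 calls, NEFH at -0.79 (limma adjusted p = 0.524) and NRGN at -0.82 (adjusted p = 0.619). NEUROD1, the only excitatory neuron gene tested of 14, was -1.64 (SE 1.34, limma adjusted p = 0.723). Both NRGN and NEUROD1 were lowest on HC replicate 5, the array with the lowest GRIN1 and GRIA1 levels, and their part in those levels was not tested. NEFH was not lowest there (-4.95) but on HC replicate 3 (-5.74). Of inhibitory neuron genes 2 were tested with 0 calls and a median of -0.20, and of activity-regulated genes 5 with 0 calls and a median of -0.02. The 4 choroid plexus genes had 0 calls and a median of 0.01, HBB of the red blood cell list was 0.43 (limma adjusted p = 0.786), and 0 of 11 oligodendrocyte genes had a probe.

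The 3 genes varied together to different degrees. Over the 16 arrays GRIN1 and GRIA1 correlated with r = 0.809 (permutation p = 0.00024, 0.00072 adjusted over 3 relations) and a Spearman rho of 0.682 (permutation p = 0.00429, adjusted 0.0129). Without HC replicate 5 and HK replicate 2, the arrays farthest from the median of GRIN1, r was 0.621 (permutation p = 0.0199). Within row 1 r was -0.0501 over 8 arrays (permutation p = 0.904) and within row 2 it was 0.896 over 8 (permutation p = 0.00481). Row 2 holds HC replicate 5 and HK replicate 2, and the difference between the rows was not tested. By slide it was 0.761 and 0.835. GRIN1 and GRIA4 gave r = 0.517 (permutation p = 0.0384, adjusted 0.0576) and rho = 0.638 (permutation p = 0.00956, adjusted 0.0143). The r was 0.575 without HC replicate 5 and HK replicate 2, and 0.388 and 0.171 within the rows. GRIA1 and GRIA4 gave r = 0.244 (permutation p = 0.365) and rho = 0.250, with -0.336 and 0.0817 within the rows. The r of GRIA1 and GRIA4 was 0.0502 without HC replicate 5 and NC replicate 1. Permutations over the 16 arrays did not keep to groups or rows, so shared group and row differences enter those p-values. On deviations from the group means r was 0.728 for GRIN1 and GRIA1, 0.635 for GRIN1 and GRIA4 and 0.149 for GRIA1 and GRIA4.

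Among 867 other named genes, those whose levels over the 16 arrays were most like GRIN1 by Pearson's r were EIF4GI (0.924), PPP1R12A (0.918), EIF3A (0.911), CAMK2 (0.903) and DKC1 (0.888). For GRIA1 they were GRIA2 (0.907), ITGA4 (0.899), UCP1 (0.895), CAMK2 (0.892) and PABPC1 (0.868). For GRIA4 they were PRKAA2 (0.782), GRM8 (0.766), NUS1 (0.747), FTO (0.737) and UBQLN1 (0.730). The arrays share groups, rows and HC replicate 5, and for GRIN1 these r fell to between 0.433 and 0.850 within row 1 and were 0.847 to 0.928 within row 2. CAMK2 was thus among the nearest of both GRIN1 and GRIA1, and no gene of the GRIA4 set was in either other set.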

How the data were processed

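Fetal sheep hippocampus RNA was hybridized to 1-colour Agilent ovine arrays, 1 per fetus. Per the file headers, Feature Extraction 10.1.1.1 (the study's methods name another version) gave the deposited spot intensity after background subtraction and spatial detrending, with flags for spots well above background, saturated or outlying, coded as other values, and no scaling between arrays. A deposited table of log2 values, made by the authors with limma in R 2.15.1 per the submitters' processing notes, has shared quantiles, with the method not given in the sources used here, and served as an alternative.

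For the main values, log2 of the processed intensity minus the 75th percentile of the array was fitted with limma 3.58.1 (lmFit, eBayes, R 4.3.3) to the 4 groups over 12543 of 15008 probes (flagged above background on 3 or more of the 16), with Benjamini-Hochberg adjustment over all of them. Permutation tests, exact between groups and with 100000 resamples for correlations, used scipy 1.17.1 (Python 3.11.15), and figures matplotlib 3.10.9. The fit was tested on simulated data. The number of arrays limits the precision, and p-values measure the spread between fetuses as labelled.

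Genes were named from the files and RefSeq (1657 probes carry a name). Each probe of the 3 genes is named, with glutamate genes past the criterion in either hypoxia comparison, up to 4 genes by p in other lists, and the 5 genes most like each member. GRM8, named in HK against HC outside that rule, was chosen after its values were seen. Members, lists and criterion were chosen with earlier results of these data known. Deviations of same-numbered NC and NK arrays correlated at 0.206 to 0.375 (3 of 3 above 0.1), against 0.0724 to 0.395 for HC and HK (3 of 4). Same-numbered NK and HK arrays, which cannot share a pregnancy, correlated at 0.0315 to 0.261 (3 of 4). Of differently numbered arrays, 1 of 9 NC and NK pairs and 2 of 16 HC and HK pairs were above 0.1. Replicates 1 and 2 lie on slide 1 and the others on slide 2. Replicates 1 and 3 lie in row 1 and the others in row 2. Pairing by number and by array position therefore cannot be told apart. Alternatives were other scalings, background corrections, filters, blocks, variance models, array weights, probe averages, subsets of groups, the deposited values and leaving out each array. The array row alone and with the slide, the permutations of pooled differences and interactions, the block within oxygen groups and the limited local background were added after seeing the data.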

Additional observations from a re-analysis of the deposited data

Results flagged for a closer look

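The ketamine difference of GRIA4 differed between hypoxic and normoxic fetuses by the unadjusted criterion and not after adjustment over all probes. The difference of differences, (HK minus HC) minus (NK minus NC), was 0.66 on the log2 scale for probe 1 (exact permutation p = 0.00635, ketamine labels shuffled within each oxygen group) and 0.71 for probe 2 (exact permutation p = 0.0195), and the probes overlap over 29 bases, so they are not separate evidence. The adjusted p was 1.00 for probe 1, and 2.45% of all probes tested passed this comparison with a positive sign. In 21 sets of 1 probe and 1 group with at least 4 arrays, no array lay far enough from the rest to be singled out, where chance alone singles out about 1 in 20.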

How the results depend on the processing

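Over the comparisons of the 7 probes and the glutamate list count, 1146 values kept their direction and side of the criterion, 97 lost a call, 36 gained one, 46 changed sign and 11 counts moved. Adjusted p lay between 0.280 and 0.630 for GRIN1 HC minus NC, 0.196 and 0.597 for GRIA1, 0.205 and 0.653 for GRIA4, and 0.812 and 1.00 for the GRIA4 interaction. The 3 to 5 arrays per group limit all of these. The cause of each change below was not tested, apart from what the replicate block does to HC replicate 5.

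GRIN1 HC minus NC passed with the array row (-0.73), array weights (-0.83), deposited values (-0.42), mean of probes (-0.99), limited normexp (-0.75), trended and robust prior (-0.97) and the filter on all 16 arrays (-0.97). The pooled GRIN1 call was lost with normexp (-0.22) and with the slide (-0.70). GRIA1 HC minus NC missed the criterion with the compared groups alone (-0.65), slide and row (-0.52) and the exact permutation test (-0.65). GRIA4 HC minus NC missed it in the deposited values (-0.058) and the mean of probes (-0.33). GRIA4 HK minus NK missed it with array weights (0.27), median scaling (0.30), no filter (0.31), normexp (0.24), the compared groups alone (0.31), quantile normalization (0.30), the trended prior (0.31) and the exact test (0.31). GRIA4 NK minus NC passed with slide and row (-0.29), and HK minus HC missed with normexp (0.17).

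With the replicate number as a block, GRIN1 HC minus NC (-0.52), GRIN1 HK minus NK (-0.44) and GRIA4 NK minus NC (-0.29) passed, and GRIA1 HC minus NC did not (-0.42). Under this block, and the one within oxygen groups, HK minus HC turned sign for GRIN1 probes 1 (-0.27) and 3 (-0.0983) and GRIA1 probes 1 (-0.0579) and 2 (-0.20), and within oxygen groups GRIA1 probe 2 NK minus NC passed (-0.27). No other array has the number of HC replicate 5, so both blocks fit that array exactly. These HK minus HC values therefore equal those without HC replicate 5. The replicate block turned the GRIA1 probe 2 interaction (-0.0310) and the correlation of GRIA1 and GRIA4 (-0.11). The correlation of GRIN1 and GRIA4, 0.517, was 0.186 with the block (permutation p = 0.505) and 0.290 in the deposited values (permutation p = 0.277). The block changed no other call among the comparisons of probe 1.

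Other sign changes were of values near 0 or under normexp. HK minus HC turned for GRIN1 in the deposited values (-0.0101), normexp (-0.0317) and slide and row (-0.0040), and for GRIA1 probe 2 with the row (-0.0276), deposited values (-0.0085), normexp (-0.0559) and slide and row (-0.0445). The pooled GRIA4 value turned with the row (0.0118), deposited values (0.0101), mean of probes (0.0113) and normexp (0.38), and on probe 2 with array weights (-0.0249), deposited values (-0.0164) and limited normexp (-0.0355). Normexp gave 0.52, 0.45 and -0.28 for GRIA4 HC minus NC, NK minus NC and interaction, and 0.42, 0.33 and -0.12 on probe 2. Within row 1 the correlation of GRIN1 and GRIA1 was -0.0501 and that of GRIA1 and GRIA4 -0.336.

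The list count of 4 was 2 with the row, 1 with slide and row, 2 with limited normexp and 0 in the deposited values. Leaving out each array gave 0 to 6. HC minus NC then ran from -1.14 to -0.60 for GRIN1, -0.83 to -0.46 for GRIA1 and -0.38 to -0.29 for GRIA4. HK minus NK ran from 0.23 to 0.42 for GRIA4 and from -0.50 to 0.018 for GRIN1 probe 2. Pooled values ran from -0.81 to -0.52 for GRIN1 and from -0.061 to 0.038 and -0.030 to 0.12 for the GRIA4 probes. HK minus HC ran from -0.27 to 0.39 and -0.098 to 0.56 for GRIN1 probes 1 and 3, -0.058 to 0.31 and -0.20 to 0.19 for the GRIA1 probes and 0.29 to 0.47 for GRIA4. NK minus NC for GRIA4 ran from -0.41 to -0.21.

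Over all probes, HC minus NC had 570 higher and 786 lower calls, and 311 and 274 under normexp and 428 and 1166 under limited normexp. Calls in HK minus NK went from 352 higher and 308 lower to 44 and 29 under normexp, in HK minus HC from 359 and 235 to 55 and 37 under normexp and to 763 and 150 under limited normexp, and in the interaction from 307 and 124 to 58 and 40 and to 478 and 48. Pooled hypoxia went from 714 and 847 to 262 and 206 under normexp. With the replicate block HK minus NK had 523 and 545, HK minus HC 598 and 457 (661 and 543 within oxygen groups) and the interaction 422 and 244, and with array weights HK minus HC had 529 and 420 and the interaction 438 and 212. NK minus NC had 89 and 134, and 10 and 8 under normexp, 27 and 96 under limited normexp, 103 and 227 without a filter, 44 and 103 with the filter on all 16 arrays, 98 and 230 with the compared groups alone, 157 and 250 with array weights and 150 and 236 with the block within oxygen groups.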
